A study of Arabidopsis thaliana with 18 samples.

Results

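GRX480 (AT1G28480), PDF1.2 (AT5G44420) and THI2.1 (AT1G72260) of Arabidopsis thaliana were followed across an experiment on salicylic acid (SA). They were chosen by gene name, as genes at the meeting point of the SA and jasmonate pathways, with earlier results of these data known. They are 3 of the 13350 genes that have a probe set naming them alone. Each gene had 1 probe set on the Affymetrix ATH1 array, which hybridises labelled RNA to short probes. RNA came from Col-0, the reference accession of the species, treated either with SA at 0.30 mM together with the surfactant silwet at 0.02%, or with silwet at 0.02% alone. Each treatment had 9 arrays in 3 triplets by title number: SA arrays 10 to 12, 13 to 15 and 16 to 18 were set against silwet arrays 1 to 3, 4 to 6 and 7 to 9. The labels name neither the tissue nor the time of sampling, nor what separates the triplets, and do not say that replicates came from separate plantings. The p-values therefore measure the spread between these arrays, which may be technical.

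SA and jasmonate are defence hormones, and SA signalling is known to hold back part of the jasmonate response. GRX480, also called ROXY19, is a CC-type glutaredoxin, a small redox enzyme of a plant class, that binds TGA transcription factors. It is induced by SA, and its overexpression is known to suppress jasmonate-induced PDF1.2. PDF1.2 encodes a secreted antifungal defensin and is the usual marker of the jasmonate and ethylene branch of defence. THI2.1 encodes a thionin, an antimicrobial peptide whose transcript is induced by jasmonate.

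The deposited values were MAS5 signals, a linear intensity scaled so that the trimmed mean of each array was 100, with array medians of 29.7 to 36.3. Differences between treatments were taken on the log2 scale with limma over 13648 probe sets, with p-values adjusted by Benjamini-Hochberg and called under 0.05. Of all tested probe sets, 12.3% were called between SA and silwet in the first triplet, 0.3% in the second and 0.0147% in the third. In the first triplet 6.19% were called higher with SA (845) and 6.12% lower (835), a split that median centring of the arrays moved to 954 higher and 577 lower. Leaf genes were abundant on every array: RCA, the Rubisco activase, had signals of 2232 to 3733. PYK10, a root β-glucosidase, had signals of 39.6 to 261. In bulk RNA, fewer cells of a type and less RNA per cell cannot be told apart. The 3′ to 5′ actin ratio, a measure of RNA integrity, stood at 6.85 (log2) on SA array 10 and at 0.149 to 1.51 on the other 17 arrays. Another actin probe pair gave 5.66 on SA array 10, against 0.782 to 2.96 on the others. The ratio for GAPDH, a further control transcript, was far smaller there, at 0.89 against -0.164 to 0.141.

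GRX480 rose with SA in the first triplet and was the only member called between treatments in any triplet. Its signal was 523, 286 and 458 on SA arrays 10, 11 and 12, against 148, 40.8 and 158 on silwet arrays 1, 2 and 3. All 3 SA arrays lay above all 3 silwet arrays, as for 12.7% of tested probe sets, and above every one of the 15 other arrays of the study, as for 8.54%. The difference was 2.06 on the log2 scale (SE 0.44, n = 3 each), a 4.16-fold rise with a 95% interval of 2.17 to 7.96 (limma adjusted p = 0.00754). An exact permutation test of 3 arrays against 3 gave p = 0.1, the smallest it can give.

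Silwet array 2, the lowest of its triplet, affected the size of this difference: without it the value was 1.42 (limma adjusted p = 0.0184). Without SA array 10, which had the high actin ratio, the difference was 1.88 (limma adjusted p = 0.0264). Leaf markers were looked at in the same comparison. The summed signal of the 3 leaf markers with a probe set of their own, of 5 listed (RCA, LHCB4.1 and LHCB4.2, the last pair light-harvesting proteins), was 6484 to 7102 on SA arrays 10 to 12 and 7465 to 9508 on silwet arrays 1 to 3. The sums did not overlap, and 17.8% of tested probe sets taken singly lay wholly below silwet in this triplet. LHCB4.2 by itself did overlap, at 1768 on SA array 10 and 1600 on silwet array 2. None of the 3 markers was called (limma adjusted p = 0.127 to 0.322, with 2 of them at an unadjusted p under 0.05). LHCB4.1 changed sign under quantile normalization. The part of the leaf markers in the GRX480 difference was not tested.

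In the second triplet GRX480 stood at 60.6, 62.6 and 106 on SA arrays 13, 14 and 15, against 51.1, 36.4 and 91.8 on silwet arrays 4, 5 and 6. In the third triplet it stood at 57.1, 59.9 and 53.1 on SA arrays 16, 17 and 18, against 44.0, 59.8 and 40.3 on silwet arrays 7, 8 and 9. The ranges of the treatments overlapped in both triplets. The differences were 0.41 (95% interval -0.52 to 1.35) and 0.26 (-0.68 to 1.19) on the log2 scale, and neither was called by limma (adjusted p = 1.00 and 0.984). Neither had an unadjusted p under 0.05.

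**Figure D1:**
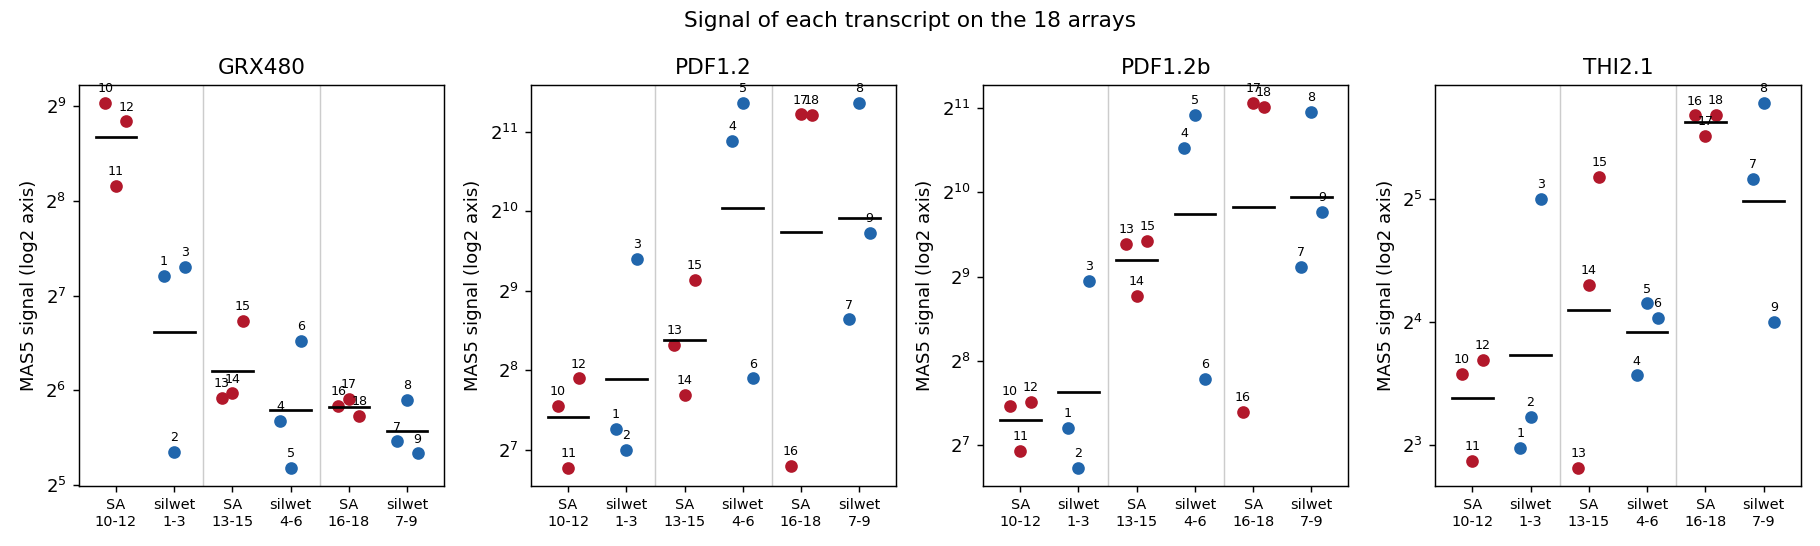
MAS5 signal (log2 axis) of GRX480, PDF1.2, its relative PDF1.2b and THI2.1 on each array, with SA in red left of silwet in blue within each triplet. Numbers are array numbers and bars are means of the 3 log2 values. SA arrays 10 to 12 hold the 3 highest GRX480 signals (286 to 523), and PDF1.2 spans 110 to 2626.

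The GRX480 difference was 1.64 lower on the log2 scale in the second triplet than in the first (SE 0.62) and 1.80 lower in the third than in the first (SE 0.62). The limma F test of whether the SA effect differed between triplets gave an unadjusted p of 0.0197 and an adjusted p of 0.132, which did not pass. It passed for 8.36% of tested probe sets.

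Within the SA arrays alone GRX480 did change between triplets. Its mean was 2.47 lower (SE 0.44) on SA arrays 13 to 15 than on SA arrays 10 to 12, and the F test over the 3 SA triplets passed (limma adjusted p = 0.000208). That test passed for 30.1% of tested probe sets. Over the silwet triplets it did not pass (adjusted p = 0.565, against 1.14% of tested probe sets that passed), although without silwet array 2 it did (adjusted p = 0.0438).

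Ordered by mean log2 signal, GRX480 ran from SA arrays 10 to 12 (8.68 ± 0.46, SD, n = 3) to silwet arrays 1 to 3 (6.62 ± 1.0998) and SA arrays 13 to 15 (6.21 ± 0.46). SA arrays 16 to 18 (5.82 ± 0.09), silwet arrays 4 to 6 (5.79 ± 0.68) and silwet arrays 7 to 9 (5.57 ± 0.30) followed. The first step of this order was called, and not every later step was tested. The next 3 groups after SA arrays 10 to 12 were separated by 0.41 and 0.38 on the log2 scale. The 3 lowest groups lay within 0.26 of each other.

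Same-numbered replicates of SA and silwet deviated together across the array, so each SA array could also be set against the silwet array of its own number and triplet. GRX480 was higher with SA in 9 of 9 such pairs, as were 0.484% of tested probe sets. The pair differences in the first triplet were 1.82, 2.81 and 1.54 on the log2 scale. In the second triplet they were 0.25, 0.78 and 0.21. In the third they were 0.37, 0.0044 and 0.40, so that the smallest pair, SA array 17 and silwet array 8, had nearly equal signals.

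Averaged over the triplets, GRX480 was 0.91 higher with SA on the log2 scale (SE 0.25, 95% interval 0.37 to 1.45). Adjusted over all tested probe sets this did not pass (limma adjusted p = 0.518). For this gene taken singly, an exact permutation of treatments within triplets (two-sided, 8000 arrangements) gave p = 0.0103 and an exact sign-flip test over the 9 pairs (512 arrangements) gave p = 0.0039, the smallest it can give. Neither p-value is adjusted for the choice of gene, which was made with earlier results of these data known.

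**Figure D2:**
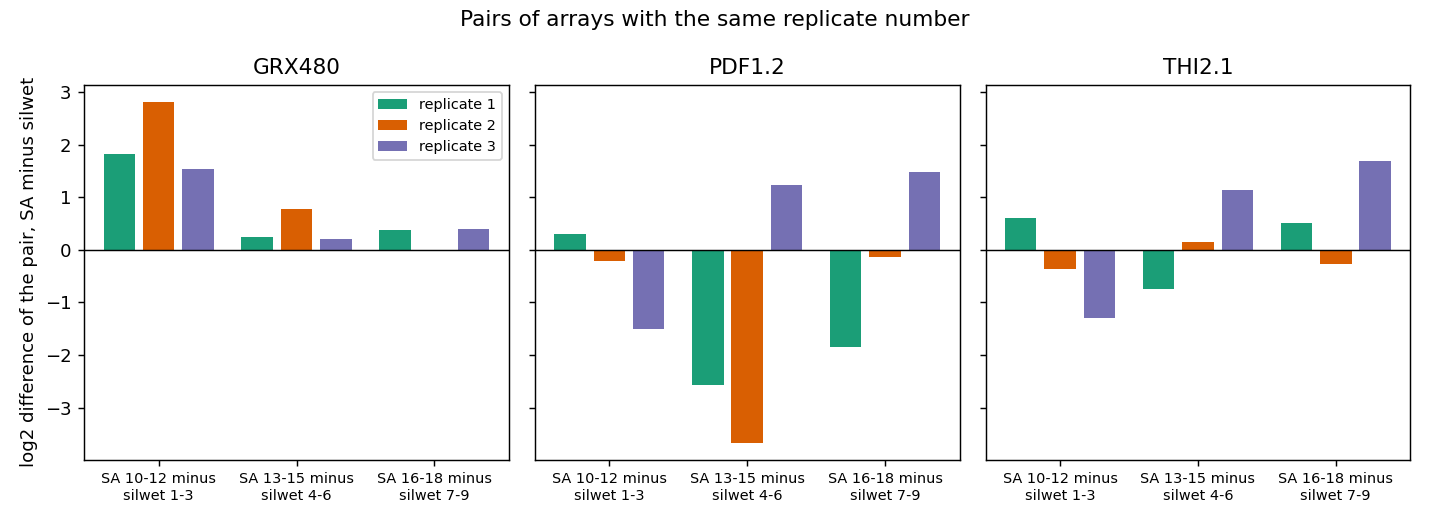
log2 difference, SA minus silwet, of each pair of arrays with the same replicate number, by triplet, for GRX480, PDF1.2 and THI2.1. GRX480 is at or above 0.0044 in all 9 pairs, while PDF1.2 is lower with SA in 6 of 9 pairs and THI2.1 in 4 of 9.

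PDF1.2 varied widely between arrays of the same group, and limma called no SA effect in any triplet. Its signal ran between 110 and 2626, a 23.9-fold range, and its residual SD of 1.55 on the log2 scale was higher than that of 99.92% of tested probe sets (median 0.27). On 5 arrays the signal was 1889 to 2626, and on the other 13 it was at most 849. The 5 were silwet arrays 4, 5 and 8 and SA arrays 17 and 18.

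In the first triplet PDF1.2 had signals of 188, 110 and 239 on SA arrays 10, 11 and 12, against 153, 128 and 674 on silwet arrays 1, 2 and 3. The ranges overlapped, and both treatments were low apart from silwet array 3. The difference was -0.47 on the log2 scale (SE 1.17), and its 95% interval ran from 0.128-fold to 4.06-fold (limma adjusted p = 0.837). Without silwet array 3 it was 0.28.

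In the second triplet PDF1.2 had signals of 318, 206 and 562 on SA arrays 13, 14 and 15, against 1889, 2622 and 239 on silwet arrays 4, 5 and 6. Here 2 of the 3 silwet arrays lay well above every SA array and silwet array 6 lay among them. The difference of -1.67 (SE 1.17) was the largest of the 3 triplets for this gene. It had an interval of 0.0559-fold to 1.78-fold (limma adjusted p = 1.00; unadjusted p = 0.174). It moved to -2.74 without silwet array 6 and to -1.01 without silwet array 5.

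In the third triplet PDF1.2 had signals of 111, 2382 and 2374 on SA arrays 16, 17 and 18, against 399, 2626 and 849 on silwet arrays 7, 8 and 9. SA array 16 was among the lowest of the study and its fellow replicates among the highest. The difference was -0.17 (SE 1.17, interval 0.158-fold to 5.02-fold, limma adjusted p = 0.996), and it changed sign to 1.31 without SA array 16 and to 0.56 without silwet array 8. With array weights it was -1.45 (limma adjusted p = 0.684). These gave silwet array 8 a weight of 6.01 and the other arrays 0.561 to 1.77, so that array largely set the weighted silwet mean here.

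Over the 3 triplets PDF1.2 was 0.77 lower with SA on the log2 scale (SE 0.67), with a 95% interval of 0.216-fold to 1.59-fold. It was lower with SA in 6 of 9 pairs, and 29.4% of tested probe sets were lower in 6 or more. The exact permutation p within triplets was 0.289 and the exact sign-flip p over the pairs 0.211. The F test of whether the SA effect differed between triplets did not pass (limma adjusted p = 0.836).

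The highest mean of PDF1.2 was on silwet arrays 4 to 6 (10.05 ± 1.88 on the log2 scale, SD, n = 3) and the lowest on SA arrays 10 to 12 (7.41 ± 0.57). Between these came silwet arrays 7 to 9 (9.91 ± 1.37), SA arrays 16 to 18 (9.74 ± 2.55), SA arrays 13 to 15 (8.38 ± 0.73) and silwet arrays 1 to 3 (7.88 ± 1.32). Every pair of neighbours in this order had overlapping signals. The differences between triplets passed neither over the SA arrays (limma adjusted p = 0.302) nor over the silwet arrays (adjusted p = 0.667). Without SA array 16 the SA arrays passed, with an adjusted p of 0.0289.

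PDF1.2b (AT2G26020), a defensin gene of the same class on another chromosome, followed PDF1.2 across the arrays (Pearson r = 0.960 over 18 arrays), the highest r of any tested probe set that names 1 gene. Its probe set is of the type that can also bind transcripts of related genes, so the 2 signals cannot be treated as separate measurements. PDF1.2 lies next to PDF1.2c and PDF1.2b next to PDF1.3 in the gene table, and RNA from such copies cannot be told apart here.

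PDF1.2b had signals of 671, 439 and 686 on SA arrays 13, 14 and 15, against 1477, 1940 and 221 on silwet arrays 4, 5 and 6. In the third triplet it had 168, 2133 and 2067 on SA arrays 16, 17 and 18, against 554, 1991 and 875 on silwet arrays 7, 8 and 9. The high arrays were those of PDF1.2, while silwet array 6 lay below all 3 SA arrays of its triplet for PDF1.2b and among them for PDF1.2. Its differences were -0.33, -0.55 and -0.13 on the log2 scale in the 3 triplets (SE 0.96), and limma called none (adjusted p = 0.866 to 1.00; no unadjusted p under 0.05).

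**Figure D3:**
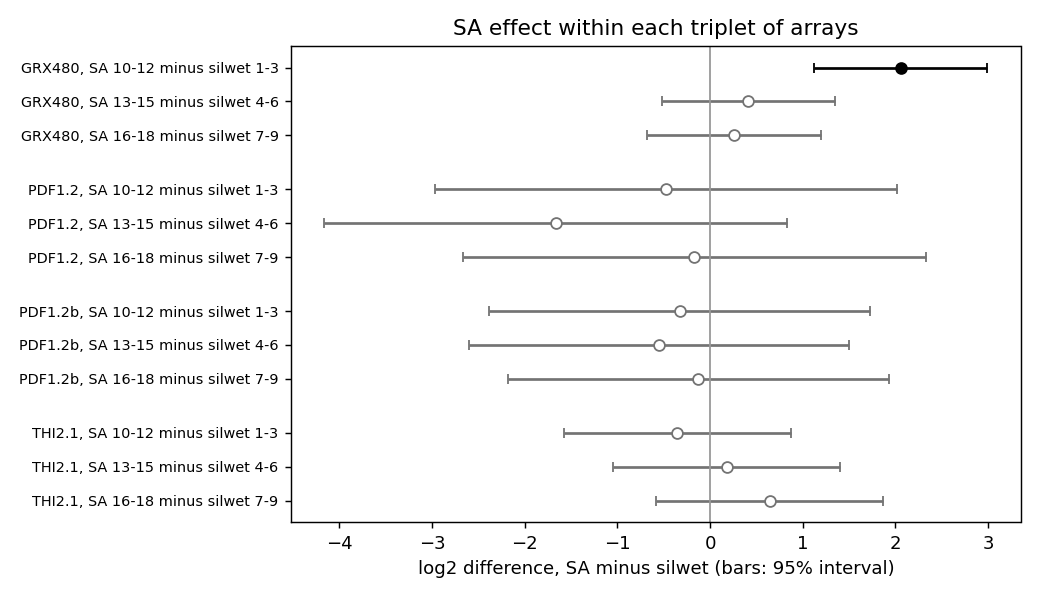
log2 difference, SA minus silwet, with its 95% interval from limma, for each gene and triplet. The filled point is the only called difference (GRX480, first triplet, 2.06), and the PDF1.2 intervals run from -4.16 to 2.33.

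THI2.1 was a weakly detected transcript on these arrays and limma called no SA effect on it. Its mean log2 signal lay just above the filter for testing, and its signals were between 7.04 and 54.8. In the first triplet they were 11.9, 7.31 and 12.9 on SA arrays 10, 11 and 12, against 7.87, 9.36 and 31.9 on silwet arrays 1, 2 and 3. The treatments overlapped, and silwet array 3 stood above the other 5. The difference was -0.35 on the log2 scale (SE 0.58, limma adjusted p = 0.744), and 0.28 without silwet array 3.

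In the second triplet THI2.1 had 7.04, 19.7 and 36.1 on SA arrays 13, 14 and 15, against 11.8, 17.7 and 16.4 on silwet arrays 4, 5 and 6. In the third it had 51.2, 45.6 and 51.4 on SA arrays 16, 17 and 18, against 35.7, 54.8 and 16.0 on silwet arrays 7, 8 and 9. The silwet range spanned the SA range in the third triplet, where the 3 SA arrays were close together. The differences were 0.18 (95% interval -1.04 to 1.41) and 0.64 (-0.58 to 1.87), with limma adjusted p of 1.00 and 0.957.

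Over the triplets THI2.1 was 0.16 higher with SA on the log2 scale (SE 0.33, 95% interval -0.55 to 0.86). It was higher in 5 pairs and lower in 4, and the exact permutation p within triplets was 0.67. The F test of whether the SA effect differed between triplets did not pass (limma adjusted p = 0.743). The third triplet minus the first gave 1.00 on the log2 scale (95% interval -0.74 to 2.73).

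THI2.1 did differ between the triplets of SA arrays. Its signals on SA arrays 16 to 18 (45.6 to 51.4) were all above those on SA arrays 10 to 12 (7.31 to 12.9), as for 23.8% of tested probe sets. The F test over SA triplets passed (limma adjusted p = 0.0184, among the 30.1% that passed) and was lost without SA array 11 (adjusted p = 0.0622). Over the silwet triplets it did not pass (adjusted p = 0.613). That F tests passed over one treatment and not over the other does not show that the courses differed.

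In order of mean log2 signal THI2.1 stood highest on SA arrays 16 to 18 (5.62 ± 0.10, SD, n = 3), then on silwet arrays 7 to 9 (4.98 ± 0.90), SA arrays 13 to 15 (4.097 ± 1.19) and silwet arrays 4 to 6 (3.92 ± 0.31). Silwet arrays 1 to 3 (3.73 ± 1.102) and SA arrays 10 to 12 (3.38 ± 0.45) were lowest. Neighbouring groups overlapped throughout this order.

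The members were then set against each other on the same array. SA arrays 10 to 12 combined the highest GRX480 signals with low PDF1.2 signals (110 to 239). Silwet arrays 1 and 2 had PDF1.2 signals as low (153 and 128), beside GRX480 signals of 148 and 40.8. SA array 16 had the second lowest PDF1.2 signal (111) at a GRX480 signal of 57.1. Low PDF1.2 thus occurred at high and at low GRX480. The 5 arrays with PDF1.2 signals of 1889 to 2626 all had low GRX480 signals, at 36.4 to 59.9. Signal levels of these genes were not tested against each other across groups.

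Deviations of each array from the mean of its group showed no relation between members that passed adjustment over the 3 pairs of genes (permutation of arrays within groups, 100000 resamples). GRX480 and PDF1.2 had r = 0.09 and rho = 0.19 over 18 arrays (permutation adjusted p = 0.782 and 0.535). GRX480 and THI2.1 had r = 0.48 and rho = 0.44 (permutation adjusted p = 0.222 and 0.216). PDF1.2 and THI2.1 had r = 0.32 and rho = 0.37 (permutation adjusted p = 0.222 and 0.216). Without the 2 arrays farthest from the median of the gene named first, r was 0.18, 0.51 and 0.51 for these pairs, and no adjusted permutation p passed.

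**Figure D4:**
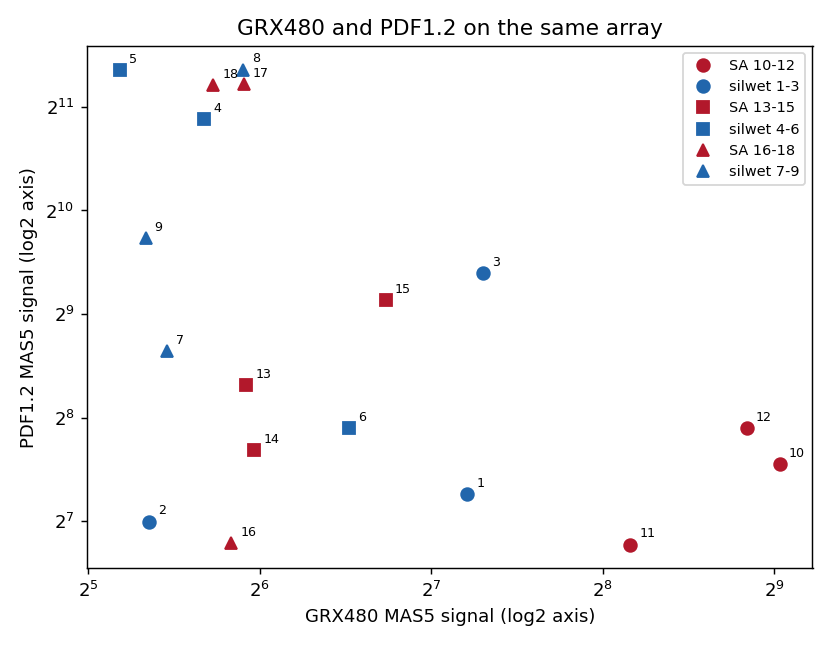
PDF1.2 signal against GRX480 signal on the same array (both log2 axes), with SA in red and silwet in blue and a marker shape for each triplet. SA arrays 10 to 12 stand apart at GRX480 signals of 286 to 523, while PDF1.2 signals near 110 to 153 occur on both sides. The 5 highest PDF1.2 signals (1889 to 2626) lie at GRX480 signals of 36.4 to 59.9.

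Among the other CC-type glutaredoxins, 16 of 20 listed genes had a probe set of their own and 11 were tested. Limma called none in any triplet, with 1, 1 and 0 at an unadjusted p under 0.05 in the first, the second and the third triplet. In the first triplet their median difference was 0.04 on the log2 scale, beside -0.05 over all tested probe sets, and 6 of 11 were positive (44.44% of all tested). Their median in the second triplet was -0.30 and 2 of 11 were positive, beside -0.0022 and 49.63% over all tested. In the third the median was 0.33 and 10 of 11 were positive, beside -0.02 and 46.75%. AT4G33040 had the smallest p of the first triplet, at -0.77 (SE 0.36, limma adjusted p = 0.176). AT2G47880 had the smallest p of the second triplet, at -0.90 (SE 0.38, limma adjusted p = 0.789). Over the SA triplets 5 of the 11 passed the F test, which 30.1% of tested probe sets passed. Several of these genes, such as AT4G15660, AT4G15680 and AT4G15700, are close copies, and their signals are uncertain.

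Of 13 other defensin and thionin genes, 10 had a probe set of their own and 5 were tested. PDF2.2, a defensin that the gene table lists as LCR69, was called lower with SA in the first triplet. Its signal was 1705, 1242 and 1277 on SA arrays 10, 11 and 12, against 1945, 2297 and 2364 on silwet arrays 1, 2 and 3. The groups did not overlap, as for 17.8% of tested probe sets in this direction, and the difference was -0.66 on the log2 scale (SE 0.19, limma adjusted p = 0.029). The call was lost without silwet array 2 or 3 or SA array 11 or 12 (adjusted p = 0.0785 to 0.111), and with median centring (adjusted p = 0.0818).

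PDF2.3, listed as LCR68, differed by -0.37 (SE 0.14, limma adjusted p = 0.104) in the first triplet and passed with the replicate number as a block (adjusted p = 0.0313). THI2.2, another thionin gene in the list, had signals of 27.7 to 113. Its difference of smallest p was 0.50 in the third triplet (SE 0.52, limma adjusted p = 0.959). In the second triplet and the third limma called none of the 5, and none had an unadjusted p under 0.05. PDF1.1, PDF1.4, PDF2.1, PDF2.5 and AT2G15010 were too dim to test.

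**Figure D5:**
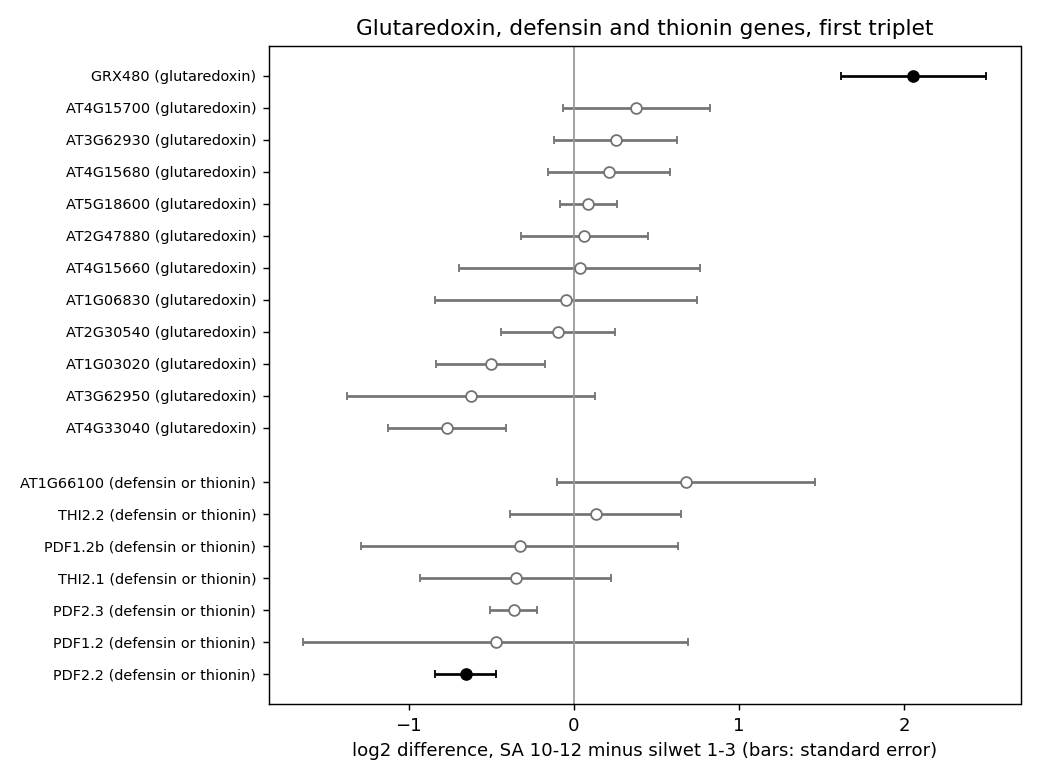
log2 difference in the first triplet, SA arrays 10 to 12 minus silwet arrays 1 to 3, with its standard error, for the tested CC-type glutaredoxins, defensins and thionins. Filled points are called: GRX480 (2.06) and PDF2.2 (-0.66).

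The annotation used here named no gene for 8794 of 22810 probe sets. In it, few genes of jasmonate synthesis and signalling had a probe set naming them alone. Of 33 synthesis and turnover genes 8 had one and 5 were tested. Limma called none in any triplet, and none had an unadjusted p under 0.05. The smallest p belonged to OPCL1, which activates jasmonate precursors, at -0.44 in the third triplet (SE 0.22, limma adjusted p = 0.957). AIM1, an enzyme of peroxisomal β-oxidation, differed by -0.27 (SE 0.16, limma adjusted p = 0.957) in the same triplet. JOX2, JOX3 and JOX4, jasmonate hydroxylases, had signals of 136 to 491, 8.60 to 229 and 43.3 to 641 over the arrays and were not called.

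Of 23 genes for jasmonate perception and its regulators, MYC3 and MYC4, transcription factors of the jasmonate response, were the 2 named and tested. They differed by -0.28 (SE 0.29) and -0.30 (SE 0.30) in the third triplet, and neither was called (limma adjusted p = 0.959 and 0.957) or had an unadjusted p under 0.05 in any triplet. Of 28 genes of the ethylene and ERF branch only EIN3, the ethylene transcription factor, was named and tested, at 0.33 in the first triplet (SE 0.16, limma adjusted p = 0.191; unadjusted p not under 0.05 in any triplet). None of 13 genes of the MYC branch of the jasmonate response had a probe set of its own in this annotation. That does not show that the array lacks probes for them.

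On the SA side 3 of 34 listed genes were named and tested, and 1 was called in the first triplet, where 12.3% of tested probe sets were. WRKY53, a transcription factor of senescence and defence, had signals of 739, 560 and 456 on SA arrays 10, 11 and 12, against 302, 196 and 122 on silwet arrays 1, 2 and 3. The groups did not overlap, as for 12.7% of tested probe sets in this direction. WRKY53 rose by 1.57 on the log2 scale (SE 0.29, limma adjusted p = 0.00283). SAG101, a partner of EDS1 in immunity, differed by 0.78 (SE 0.29, limma adjusted p = 0.0849) and passed with the replicate number as a block (adjusted p = 0.0297). WRKY6, a related transcription factor, differed by 0.73 (SE 0.37, limma adjusted p = 0.213). All 3 were positive in the first triplet (44.44% of all tested probe sets were), 0 of 3 in the second (49.63%) and 1 of 3 in the third (46.75%), where limma called none. WRKY53 differed by -0.39 in the second triplet, and SAG101 by -0.64, with an unadjusted limma p of 0.040 for SAG101. All 3 passed the F test over the SA triplets, which 30.1% of tested probe sets passed.

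The probe sets most like GRX480 over the 18 arrays were those of AT3G51440 (r = 0.934), AT1G21550 (r = 0.917), AT3G48760 (r = 0.916), AT1G32120 (r = 0.915) and AT1G66090 (r = 0.912). The most opposed were AT5G15740 (r = -0.916), AT5G12150 (r = -0.915) and AT2G04280 (r = -0.914). After PDF1.2b, those most like PDF1.2 were AT4G16260 (r = 0.870), CYP71B22, a cytochrome P450 (r = 0.796), AT2G43590 (r = 0.785) and AT2G32760 (r = 0.741). The most opposed were AT3G59470 (r = -0.763), AT1G02750 (r = -0.752) and AT5G57785 (r = -0.750).

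For THI2.1 the likest were AT4G19830 (r = 0.817), AT1G54020 (r = 0.802), PRX52, a cell wall peroxidase (r = 0.782), AT5G16810 (r = 0.768) and AT5G55640 (r = 0.765). The most opposed were AT1G21370 (r = -0.774), WRKY47, a transcription factor (r = -0.772), and AT3G07580 (r = -0.759). These correlations over arrays that share treatments and triplets are descriptions, and no p is given for them.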

How the data were processed

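ATH1 arrays were deposited as MAS5 signals, an intensity on a linear scale (MAS5 per the submitters' processing notes); the deposited values of each array had a 2% trimmed mean near 100. The array total of 18 limits the precision. Arrays were grouped by the treatment and number in their titles. Members and gene lists were chosen with earlier results of these data known. Of 22810 probe sets, 13513 named 1 gene, 503 several and 8794 none in the platform annotation used here; 13436 were matched to a gene table for symbols. Values were floored at the 20th percentile of their array and log2 was taken. The 64 control probe sets and those with a mean log2 under the 40th percentile were left out, leaving 13648. A 6-group model was fitted with limma 3.58.1 in R 4.3.3 (eBayes with trend and robust, 12 residual degrees of freedom), contrasting SA with silwet within triplets, over their mean and between triplets. The script was tested on simulated data. Exact permutation tests were enumerated in Python 3.11.15 with numpy 2.4.6, and rank correlations used scipy 1.17.1.

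Named genes were the 3 members, each list's probe sets that passed within a triplet (up to 6 of smallest p) with 2 more of smallest p, and the 5 most like and 3 most opposed to each member.

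The replicate numbers were checked for pairing: deviations of SA and silwet arrays of 1 triplet correlated at 0.258 to 0.73 for equal numbers (9 pairs) and at -0.533 to 0.0525 for unequal ones (18 pairs). Deviations cancel within a group, so positive values for equal numbers push those for unequal numbers down, and the latter are not separate evidence. Equal numbers were taken as pairs in the pair comparisons, on the evidence of the data, while the main limma fit left the pairing out. No label says what equal numbers share. A fit with the number as a block, other floors, filters, scalings and weights, and leaving out each array were the alternatives. Promoter and protein sequences were not used here.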

Additional observations from a re-analysis of the deposited data

Results flagged for a closer look

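In 3 of the genes named above the SA effect differed between triplets by the limma F test, each with 3 arrays a group. WRKY53 had an adjusted p of 0.00794 for this difference, with 1.57 on the log2 scale in the first triplet, -0.39 in the second and -0.26 in the third. WRKY53 also differed between the silwet triplets (limma adjusted p = 0.00177), where its signals were 122 to 302 on silwet arrays 1 to 3 and 34.2 to 47.4 on silwet arrays 7 to 9. The F test of the SA effect between triplets passed for 8.36% of tested probe sets. AT1G32120 and AT1G66090 were picked for a pattern like that of GRX480 over the same 18 arrays, so their values are descriptions and support nothing on their own. AT1G32120, one of the probe sets most like GRX480, had an adjusted p of 0.0394, with differences of 1.07, -0.14 and 0.20. AT1G66090, another of them, had an adjusted p of 0.0442, with differences of 1.45, -0.02 and 0.28, and it also differed between the silwet triplets (limma adjusted p = 0.0164). GRX480 had an adjusted p of 0.132 for the difference of its SA effect between triplets.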

How the results depend on the processing

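The GRX480 difference in the first triplet stayed called under all alternatives run (1.42 to 2.40 leaving out single arrays, 1.85 to 2.11 under other settings). With the replicate number as a block its adjusted p was 0.00371. The block changed no call on the 3 members. It moved the number of probe sets called from 1680 to 2518 in the first triplet and from 41 to 60 in the second. It also gave 7 in the third triplet, 1829 for the difference between triplets and 249 over silwet triplets. Array weights gave 69 called in the second triplet, 41 in the third, 1731 for the difference between triplets and 243 over silwet triplets, and turned THI2.1 to -0.054 in the second triplet and -0.18 over the mean of triplets. They also moved PDF1.2 to -0.76 in the first triplet, -2.10 in the second, -1.45 in the third and -1.43 over the mean. THI2.1 moved to -0.61 in the first and 0.13 in the third. PDF1.2b moved to -0.57 in the first, -0.82 in the second and -1.05 in the third, and GRX480 to 0.014 in the third. None of these differences was called. In the third triplet 4 were called with the filter at the 60th percentile, which leaves THI2.1 untested, and limma called 0 with median centring (582 at an unadjusted p under 0.05). Over the mean of triplets 7 were called with no filter, 2 with median centring and 0 in a limma fit of 9 against 9 arrays without triplets, where 237 had an unadjusted p under 0.05. LHCB4.1 turned to 0.055 in the first triplet with quantile normalization.

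Leaving out single arrays gave 930 to 1729 called in the first triplet, 15 to 45 in the second, 0 to 4 in the third and 2 to 9 over the mean of triplets (limma; lowest in the first without silwet array 3, in the second without SA array 15, in the third without silwet array 7 or 9 or SA array 16 (589 to 1047 at an unadjusted p under 0.05), and over the mean without any of 6 arrays), 687 to 1172 for the difference between triplets (lowest without SA array 11) and 81 to 188 over silwet triplets (lowest without silwet array 3). PDF1.2 ran from -0.92 to 0.28 in the first triplet and from -0.91 to 1.31 in the third. THI2.1 ran from -0.73 to 0.28 in the first triplet and from -0.0054 to 0.37 over the mean. PDF1.2b ran from -0.78 to 0.33, from -1.53 to 0.039 and from -0.75 to 1.09 in the 3 triplets. The adjusted p over SA triplets ran from 0.0289 to 0.598 for PDF1.2 and from 0.00706 to 0.0622 for THI2.1, and that of GRX480 over silwet triplets from 0.0438 to 0.854. PYK10 in the third triplet ran from -1.22 to 0.14. The cause of these moves was not tested. The wide spread of PDF1.2 and the low signal of THI2.1 limit what 3 arrays a group can show.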
